A study of Mus musculus with 42 samples.

Results

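Hepatic messenger RNA of 10 genes of glucuronidation was followed across corticosterone and enzalutamide treatment in male mice. The genes are Ugt1a1 and Ugt1a9 of the UGT1A subfamily, Ugt2a3 of UGT2A, the UGT2B members Ugt2b1, Ugt2b5, Ugt2b34, Ugt2b35, Ugt2b36 and Ugt2b38, and Ugdh. They were listed by symbol, with earlier results of these data known, and all 10 were found among the 55573 mouse gene IDs counted in each arm and passed the filter on low counts in both arms. Livers came from C57B6/J mice, 6 per group and 42 in all. In the acute arm the groups received vehicle, corticosterone (CORT, an adrenal steroid that activates the glucocorticoid receptor), enzalutamide (ENZA, an antagonist of the androgen receptor) or CORT+ENZA, and in the chronic arm vehicle, CORT or CORT+ENZA. Chronic enzalutamide without corticosterone was not analysed here. The sources used here state no dose, route, age or length of treatment, and no genotype or allele beyond the strain.

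UDP-glucuronosyltransferases sit in the membrane of the endoplasmic reticulum and join glucuronic acid to bilirubin, steroids, bile acids and drugs, which makes them soluble enough to leave through bile and urine. The sugar donor, UDP-glucuronic acid, is made from UDP-glucose in the cytosol by UDP-glucose dehydrogenase, the product of Ugdh. Liver is a main site of this reaction, and the nuclear receptors CAR and PXR, which sense foreign compounds, are known to raise several UGT genes there. The UGT1A genes are built as alternative first exons spliced to a common set of later exons, whereas each UGT2B gene has exons of its own.

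Each library held 18674151 to 20464521 gene counts in the acute arm and 15381724 to 19581723 in the chronic arm. RNA was extracted with different kits in the 2 arms, so duration and kit cannot be told apart and levels were not compared between arms. The 7 hepatocyte markers measured made up on average 10.5 to 11.8% of counts in the acute groups, 11.6% in chronic vehicle and 11.0% in chronic CORT mice, and none was at 0. In chronic CORT+ENZA mice they made up 7.65%. Per the labels, every library is 1 mouse. These are whole-tissue libraries, in which fewer cells of a type and less RNA per cell cannot be told apart.

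On the GRCm38 build, Ugt1a1 lies at chr1:88211959-88218997 and Ugt1a9 at chr1:88070800-88218997, both on the plus strand. They end in the same exons: of 2224 exon bases of Ugt1a1, 913 are its own, and of 2190 of Ugt1a9, 879 are. A read in the common exons cannot be given to 1 gene, so the counts of both can stand only for their first exons. Of the own bases of Ugt1a1, 528 also lie opposite the antisense gene Gm20528, and the sources used here do not state how strand was counted, so its reads are uncertain. The other genes lie on chromosome 5, with Ugt2b34 at chr5:86889767-86906937, Ugt2b1 at chr5:86916638-86926530, Ugt2b35 at chr5:87000860-87013275, Ugt2b36 at chr5:87065927-87092555, Ugt2b5 at chr5:87124960-87140318, Ugt2a3 at chr5:87324972-87337195, Ugt2b38 at chr5:87409942-87424203 and Ugdh at chr5:65413221-65435949. Ugt2b35 is on the plus strand and the others on the minus strand. Ugt2b5 and Ugt2b38 transcripts are 95.7% identical over 1857 aligned bases. Of all stretches of 50 bases, 41.7% of those in Ugt2b5 and 37.4% of those in Ugt2b38 also occur in another gene, so some reads may match more than 1 gene. The reads are pairs of 100 bases that can differ outside such a stretch, so these are not percentages of ambiguous reads. For Ugt2b1, Ugt2b34, Ugt2b35 and Ugt2b36 the share of such stretches was at most 1.45%, for Ugt2a3 4.55% and for Ugdh 4.4%.

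The 250 bases before the annotated start are shown for 5 genes, read 5′ to 3′ along the gene, from the RefSeq annotation of GRCm38.p6. All 10 genes had an entry. Ugt1a1 (chr1:88211709-88211958, plus strand) and Ugt1a9 (chr1:88070529-88070778, plus strand) are shown because each first exon has its own promoter. Ugt2b35 (chr5:87000610-87000859, plus strand) is shown as the gene with the smallest adjusted p under chronic CORT+ENZA. Ugt2b5 (chr5:87140341-87140590, minus strand) and Ugt2b38 (chr5:87424204-87424453, minus strand) are shown as near copies with very different levels. Capitals mark the nuclear receptor half-sites AGTTCA and AGGTCA and the HNF1 half-sites GTTAAT and ATTAAT on either strand, so that ATTAAC is GTTAAT on the other strand.
Ugt1a1: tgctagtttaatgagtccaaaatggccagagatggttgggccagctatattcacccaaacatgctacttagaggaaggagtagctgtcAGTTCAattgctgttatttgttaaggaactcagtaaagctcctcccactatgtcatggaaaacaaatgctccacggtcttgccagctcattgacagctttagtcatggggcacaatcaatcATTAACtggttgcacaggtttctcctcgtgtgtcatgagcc
Ugt1a9: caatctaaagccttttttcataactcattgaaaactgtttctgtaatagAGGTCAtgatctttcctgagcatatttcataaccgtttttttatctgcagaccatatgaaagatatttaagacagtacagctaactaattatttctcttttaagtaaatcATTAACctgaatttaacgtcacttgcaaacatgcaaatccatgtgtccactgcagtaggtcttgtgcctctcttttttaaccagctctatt
Ugt2b35: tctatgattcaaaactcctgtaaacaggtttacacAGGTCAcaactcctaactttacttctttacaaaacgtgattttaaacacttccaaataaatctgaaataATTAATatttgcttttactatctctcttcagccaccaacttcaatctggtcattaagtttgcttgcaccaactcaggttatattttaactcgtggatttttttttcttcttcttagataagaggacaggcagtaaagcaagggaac
Ugt2b5: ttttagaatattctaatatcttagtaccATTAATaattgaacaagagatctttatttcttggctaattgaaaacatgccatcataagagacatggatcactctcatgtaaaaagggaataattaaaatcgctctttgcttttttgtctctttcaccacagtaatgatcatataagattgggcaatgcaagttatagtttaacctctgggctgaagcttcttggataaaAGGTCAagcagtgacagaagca
Ugt2b38: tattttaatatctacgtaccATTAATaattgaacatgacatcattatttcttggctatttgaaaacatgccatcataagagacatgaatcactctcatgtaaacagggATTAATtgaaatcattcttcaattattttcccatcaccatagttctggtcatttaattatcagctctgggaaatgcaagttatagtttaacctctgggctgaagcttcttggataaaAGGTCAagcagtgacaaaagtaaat
The half-site AGGTCA occurred in 5 of the 10 windows, those of Ugt1a9, Ugt2b5, Ugt2b35, Ugt2b36 and Ugt2b38, and in 14.0% of the 32851 windows of all promoters. Its first base lay 22 bases before the start in Ugt2b5 and 25 bases before it in Ugt2b36 and Ugt2b38. The bases on either side of it are the same in these windows, so they do not count as independent occurrences. AGTTCA occurred in Ugt1a1 alone and in 11.8% of all promoters. GTTAAT occurred in Ugt1a1, Ugt1a9 and Ugt2a3 and in 6.43% of all promoters, and ATTAAT, which reads the same on both strands, in Ugt2b5, Ugt2b35 and Ugt2b38 and in 4.39%. No window of the 10 held 2 of the nuclear receptor half-sites in the same direction 3 or 4 bases apart, or a full palindromic glucocorticoid and androgen response element, which was found in 0.387% of all promoters. Both strands were searched, no marked motif overlapped another of a different sequence, and a match or its lack describes these letters in this window only. The windows of Ugt2b5 and Ugt2b38 were 88.3% identical over 240 aligned bases.

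Levels are given as CPM, the counts relative to library size after TMM scaling, and comparisons between genes as CPM per kb of exon sequence that is a gene's own in its protein-coding transcripts. In chronic vehicle livers, Ugt2b5 was highest per length with 315 ± 75.1 CPM per kb (SD, n = 6), followed by Ugt2b36 with 313 ± 57.5, Ugt2b1 with 233 ± 42, Ugt1a1 with 162 ± 28.7 and Ugt2a3 with 141 ± 23.5. The ranges of Ugt2b5 and Ugt2b36 over mice overlapped, as did those of Ugt2b36 and Ugt2b1, of Ugt2b1 and Ugt1a1, and of Ugt1a1 and Ugt2a3. Ugt2b34 followed with 90.7 ± 19.4 CPM per kb and its range lay wholly below that of Ugt2a3. Below it came Ugt2b35 with 52.7 ± 3.25, Ugdh with 33.6 ± 3.78, Ugt1a9 with 11.9 ± 4.30 and Ugt2b38 with 1.72 ± 1.02, and no range of these 4 overlapped that of the gene above it. Under chronic CORT+ENZA, Ugt2b1 had rank 2 with 494 ± 139 CPM per kb and Ugt2b34 rank 5 with 198 ± 25.6, and the other genes kept their order among themselves.

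**Figure D1:**
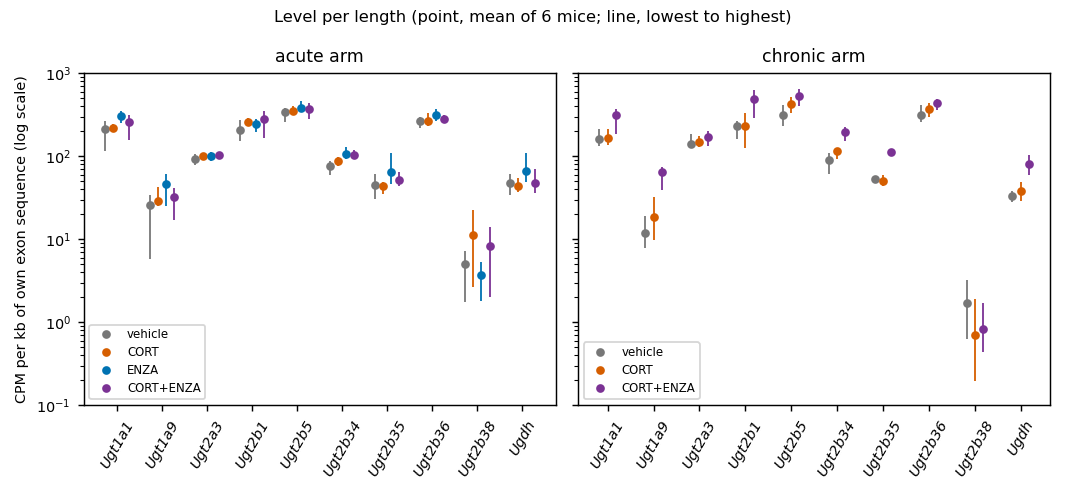
Level of each gene per length in the acute (left) and chronic (right) arm, in CPM per kb of own exon sequence on a log scale, with points for means of 6 mice and lines from the lowest to the highest mouse. Ugt2b5 is highest and Ugt2b38 lowest in both arms, with 315 and 1.72 CPM per kb in chronic vehicle mice.

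When enzalutamide was added to chronic corticosterone, most of these genes were higher. Against chronic CORT alone, 6 of the 10 genes rose and none fell by edgeR's quasi-likelihood test with Benjamini-Hochberg adjustment over all genes, called at an adjusted p under 0.05. Of all 13099 genes tested, 11.8% were called, 6.99% as higher and 4.86% as lower. The median log2 fold change was 0.84 over the 10 genes and -0.00 over all genes tested. The summed level of the 10 genes was 3335 ± 354 CPM (SD, n = 6) under CORT and 5224 ± 727 CPM under CORT+ENZA, against 2887 ± 486 CPM in vehicle mice.

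Ugt1a1, the main bilirubin-conjugating enzyme, was at 120 to 197 CPM with a median of 142 in chronic vehicle mice and at 126 to 192 CPM with a median of 150 under CORT. With CORT+ENZA it lay between 170 and 334 CPM with a median of 300. In 5 of the 6 CORT+ENZA mice Ugt1a1 was above every CORT and vehicle mouse, and mouse 18, the lowest, lay within their ranges. Its log2 fold change against CORT was 0.88 ± 0.15 (SE, adjusted p = 0.00049). Ugt1a9, which conjugates phenolic drugs and fatty acids in humans, was between 6.84 and 16.6 CPM (median 9.47) in vehicle and between 8.72 and 28.6 CPM (median 14.5) in CORT mice. Under CORT+ENZA it was between 34.4 and 66.1 CPM (median 59.4), above every other chronic mouse. Ugt1a9 rose by 1.80 ± 0.28 on the log2 scale against CORT (SE, adjusted p = 0.000377), the largest change among the 10 genes.

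Among the UGT2B genes, whose enzymes conjugate steroids, bile acids and drugs, Ugt2b35 separated the groups most evenly. It was at 163 to 192 CPM (median 177) in vehicle, 148 to 198 CPM (median 169) in CORT and 334 to 406 CPM (median 375) in CORT+ENZA mice. Its SD within the 3 groups was 6.17 to 10.4% of the mean, and the CORT+ENZA mice overlapped neither other group. The log2 fold change against CORT was 1.14 ± 0.08 (SE, adjusted p = 7.1e-09). Ugt2b34 ran from 266 to 476 CPM (median 403) in vehicle, from 401 to 544 CPM (median 502) in CORT and from 663 to 970 CPM (median 877) in CORT+ENZA mice. It too was higher in all 6 CORT+ENZA mice than in any other chronic mouse, by 0.79 ± 0.13 against CORT (log2, SE, adjusted p = 0.000448). Ugt2b1 was more scattered, at 415 to 688 CPM (median 626) in vehicle, 327 to 855 CPM (median 599) in CORT and 752 to 1626 CPM (median 1314) in CORT+ENZA mice. CORT+ENZA mice lay above all vehicle mice, and the lowest of them overlapped the CORT group. Ugt2b1 rose by 1.08 ± 0.24 against CORT (log2, SE, adjusted p = 0.00649).

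Ugdh, which supplies the sugar donor, was at 69.3 to 94.5 CPM (median 85.8) in vehicle, 72 to 120 CPM (median 94.5) in CORT and 149 to 256 CPM (median 198) in CORT+ENZA mice. The CORT+ENZA mice did not overlap the other groups, and the log2 fold change against CORT was 1.05 ± 0.14 (SE, adjusted p = 4.27e-05). The other 4 genes did not pass the test against CORT. Ugt2b5 had a log2 difference of 0.33 (95% interval 0.04 to 0.62, adjusted p = 0.156), Ugt2b36 of 0.25 (0.02 to 0.48, adjusted p = 0.185) and Ugt2a3 of 0.20 (-0.03 to 0.44, adjusted p = 0.299). Ugt2b38, at no more than 3.60 CPM in any mouse of the CORT group and 3.26 CPM in any of the CORT+ENZA group, had a log2 difference of 0.26 with an interval from -0.75 to 1.27. The intervals of Ugt2b5 and Ugt2b36 lay wholly below that of Ugt2b35, which began at 0.99.

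**Figure D2:**
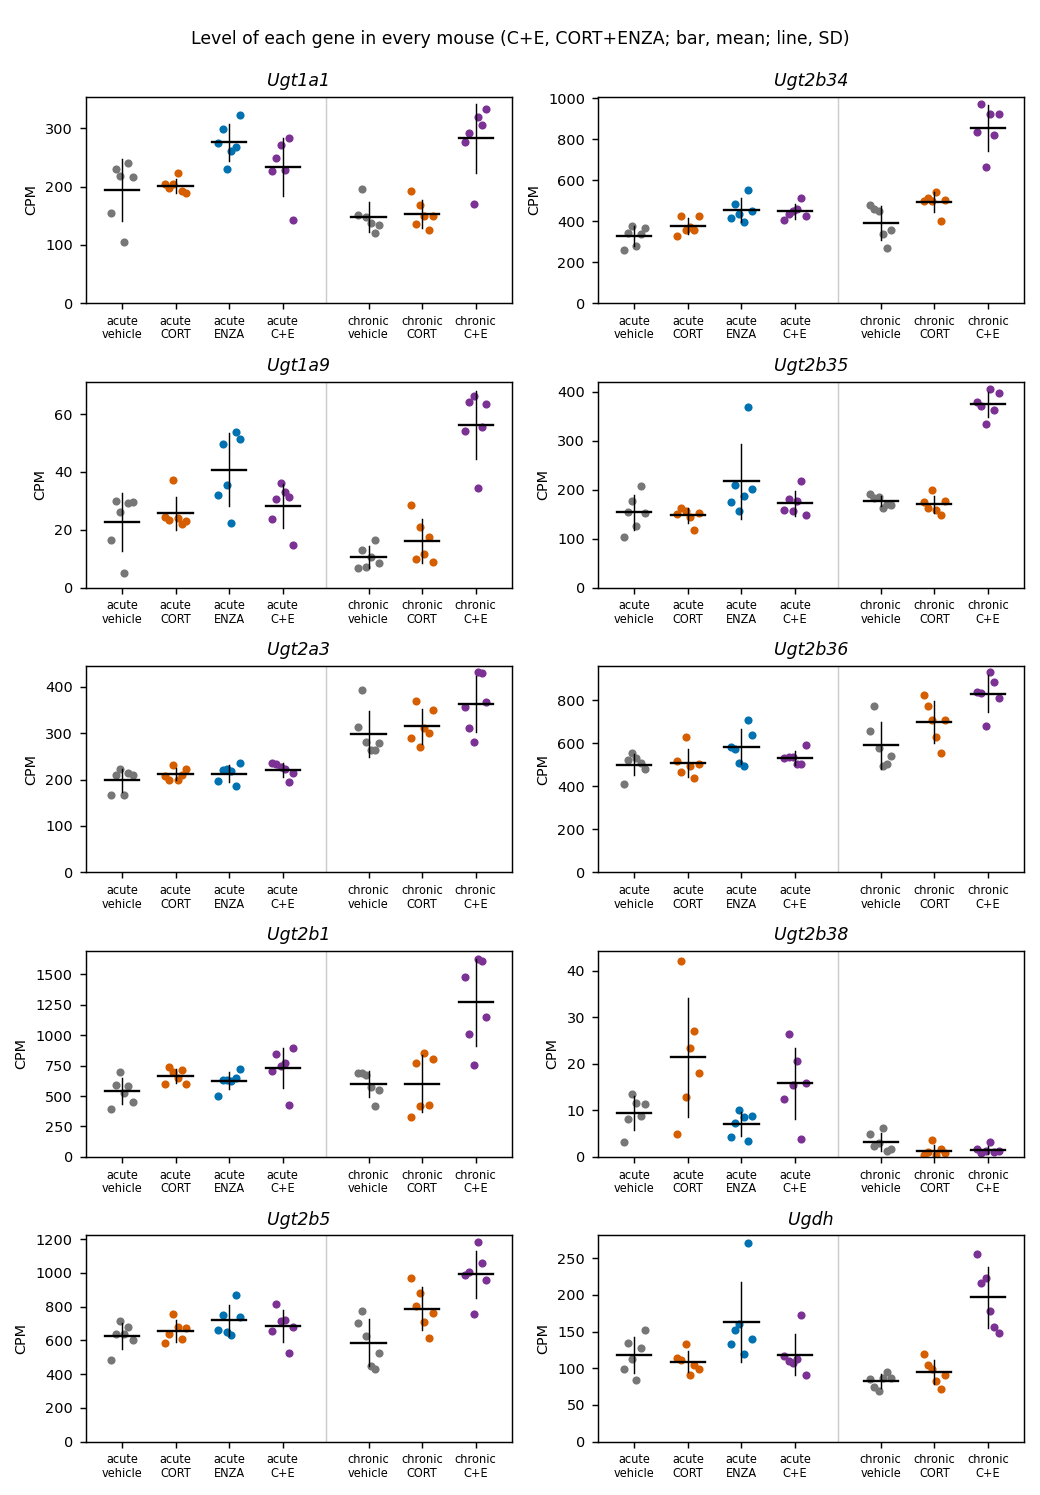
Level of each gene in every mouse, in TMM-scaled CPM on axes that start at 0, with acute groups on the left and chronic groups on the right of each panel. Bars are means and lines SDs of 6 mice. Chronic CORT+ENZA mice stand above the other chronic groups for Ugt1a9, Ugt2b34, Ugt2b35 and Ugdh with no overlap. The share of all genes whose groups do not overlap was not computed.

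Against chronic vehicle, the CORT+ENZA group showed 8 genes higher and none lower, where 18.6% of all genes tested were called, 10.3% as higher and 8.29% as lower. Both comparisons share the CORT+ENZA group. The median log2 fold change was 1.01 over the 10 genes and -0.01 over all. Ugt1a9 was 5.39-fold higher (log2 2.43 ± 0.29 SE, adjusted p = 1.29e-05) and Ugdh 2.37-fold (log2 1.25 ± 0.14, adjusted p = 3.25e-06). Ugt2b34, Ugt2b1, Ugt2b35 and Ugt1a1 were 2.19-fold, 2.12-fold, 2.12-fold and 1.92-fold higher. The further calls were Ugt2b5, with 431 to 776 CPM (median 577) in vehicle and 755 to 1185 CPM (median 997) in CORT+ENZA mice, and Ugt2b36, with 494 to 776 CPM (median 559) and 683 to 933 CPM (median 837). Both overlapped between groups in their ranges, with log2 fold changes of 0.76 ± 0.15 (SE, adjusted p = 0.00114) and 0.49 ± 0.12 (SE, adjusted p = 0.00629). Ugt2a3 had a log2 difference of 0.28 (95% interval 0.04 to 0.52, adjusted p = 0.116), and Ugt2b38 of -1.06 (-2.03 to -0.09, adjusted p = 0.151).

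Chronic corticosterone alone was followed by 1 call among the 10 genes, 10% of them, against 18.3% of all genes tested, 9.04% as higher and 9.29% as lower. Ugt2b5 ranged from 612 to 968 CPM (median 783) under CORT, and the lower CORT mice overlapped the upper vehicle mice. Its log2 fold change was 0.43 ± 0.15 (SE, adjusted p = 0.0466). Ugt2b36 was at 555 to 823 CPM (median 708) and Ugt2a3 at 270 to 369 CPM (median 306) under CORT, and Ugt2a3 at 263 to 394 CPM (median 280) in vehicle and 281 to 432 CPM (median 363) in CORT+ENZA mice, so that all 3 chronic groups of Ugt2a3 overlapped. The Ugt2b5 call did not hold in 13 of 25 alternative fits, among them most that leave out 1 mouse, with adjusted p from 0.00576 to 0.115. The median log2 fold change was 0.14 over the 10 genes and -0.01 over all. Ugt2b34 and Ugt2b38 had adjusted p of 0.0782 and 0.0771, with log2 differences of 0.34 (95% interval 0.08 to 0.59) and -1.31 (-2.30 to -0.33).

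**Figure D3:**
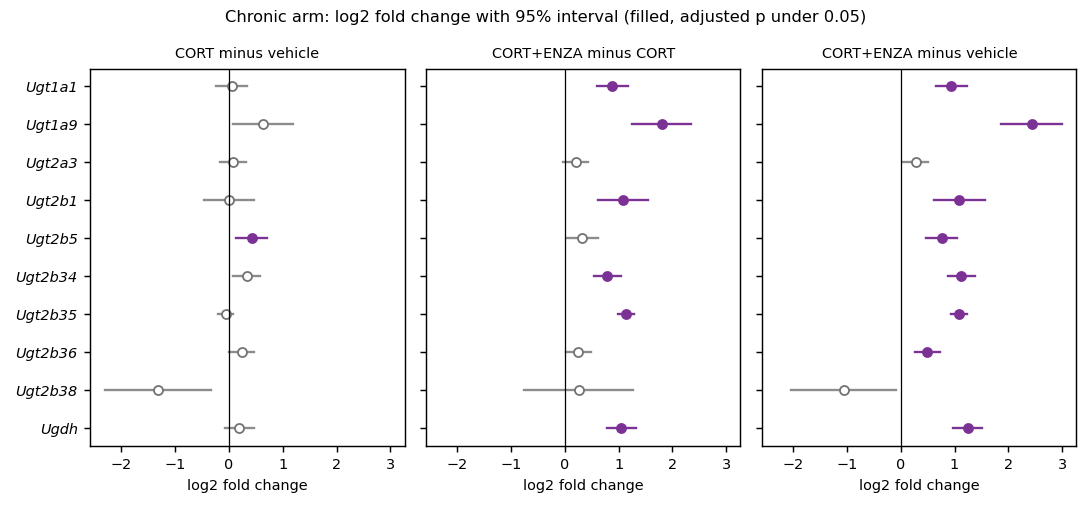
Log2 fold change of each gene in the 3 chronic comparisons, with 95% intervals by a normal approximation. Filled points have an adjusted p under 0.05. CORT minus vehicle has 1 filled point (Ugt2b5), CORT+ENZA minus CORT 6 and CORT+ENZA minus vehicle 8, all above 0.

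The makeup of the UGT pool is described as shares of the summed CPM of the 9 UGT genes, which were not tested and follow CPM, not CPM per length. Ugt2b1, Ugt2b36 and Ugt2b5 each made up about the same part in chronic vehicle mice, at 21.4 ± 1.79%, 21.1 ± 1.28% and 20.7 ± 1.44% (SD, n = 6). Under CORT, Ugt2b5 stood at 24.4 ± 3.34%, Ugt2b36 at 21.6 ± 2.08%, Ugt2b1 at 18.3 ± 6.08% and Ugt2b34 at 15.3 ± 0.648%. Under CORT+ENZA, Ugt2b1 stood at 24.9 ± 4.00%, Ugt2b5 at 19.7 ± 0.755%, Ugt2b34 at 17.1 ± 1.95% and Ugt2b36 at 16.7 ± 0.981%. Ugt1a9 was at 0.392 ± 0.196% in vehicle, 0.513 ± 0.254% in CORT and 1.17 ± 0.399% in CORT+ENZA mice, and Ugt2a3 at 10.7 ± 0.929%, 9.78 ± 1.17% and 7.22 ± 0.513%.

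In the acute arm the calls were few. Corticosterone was followed by no call among the 10 genes, and 1.62% of all genes were called, 0.947% as higher and 0.67% as lower. At an unadjusted p under 0.05 there were 3 of the 10, Ugt2b38, Ugt2b1 and Ugt2b34, against 1934 of all 13733 genes, and DESeq2 and limma-voom also called none of the 10. Enzalutamide alone was followed by 1 call, Ugt2b34, against 1.31% of all genes, 0.845% as higher and 0.466% as lower, and CORT+ENZA against vehicle by 1, again Ugt2b34, against 2.47%, 1.42% as higher and 1.05% as lower. Ugt2b34 was at 257 to 378 CPM (median 339) in acute vehicle, 325 to 424 CPM (median 364) in CORT, 395 to 554 CPM (median 440) in ENZA and 406 to 515 CPM (median 442) in CORT+ENZA mice. Every mouse given enzalutamide was above every vehicle mouse. The log2 fold changes against vehicle were 0.48 ± 0.10 with ENZA (SE, adjusted p = 0.0145) and 0.46 ± 0.10 with CORT+ENZA (SE, adjusted p = 0.0113). The call with ENZA alone did not hold when the fit was limited to the groups compared (adjusted p = 0.0693).

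The other 9 genes did not pass in the acute arm, and their levels follow in the order vehicle, CORT, ENZA and CORT+ENZA, as CPM with SD and n = 6. Ugt1a1 was at 194 ± 53.0, 202 ± 12.0, 276 ± 31.8 and 234 ± 49.7, and Ugt1a9 at 22.7 ± 9.99, 25.7 ± 5.72, 40.8 ± 12.7 and 28.2 ± 7.72. Both had their lowest acute values in vehicle mouse L19A, at 105 and 5.13 CPM, and in CORT+ENZA mouse L36A, at 143 and 14.8 CPM. Ugt2b1 was at 540 ± 109, 667 ± 59.3, 625 ± 70.4 and 732 ± 165, and Ugt2b5 at 627 ± 79.1, 656 ± 62.5, 718 ± 89.5 and 686 ± 96.5. Ugt2b36 was at 502 ± 50.8, 508 ± 64.9, 585 ± 80.1 and 534 ± 33.0, and Ugt2a3 at 198 ± 25.0, 212 ± 13.0, 213 ± 18.4 and 222 ± 14.9. For these 4 genes the 4 acute groups overlapped, and vehicle had the lowest mean of the 4. Ugt2b35 was at 154 ± 36.7, 148 ± 15.5, 217 ± 77.2 and 173 ± 25.2, and Ugdh at 118 ± 24.7, 109 ± 14.6, 163 ± 54.9 and 118 ± 28.0. Their highest means, with the largest SDs, were those of the ENZA group.

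With ENZA alone their log2 differences from vehicle included 0.84 for Ugt1a9 (95% interval 0.25 to 1.44, adjusted p = 0.19), 0.51 for Ugt1a1 (0.20 to 0.81, adjusted p = 0.115), 0.50 for Ugt2b35 (0.17 to 0.83, adjusted p = 0.157) and 0.46 for Ugdh (0.12 to 0.80, adjusted p = 0.213). In the ENZA group, mouse L29A had the highest level of Ugt2b35, at 370 CPM where the other 5 had 157 to 210, and of Ugdh, at 271 CPM where the others had 120 to 160. The summed level of the 10 Kupffer cell markers, genes of the resident liver macrophages, ran from 199 to 769 CPM in that group, with a median of 253, and its highest value was also that of L29A. In the acute vehicle group the sum ran from 232 to 322 CPM, and none of these markers was at 0. Its part in the 2 high values was not tested. Median log2 differences over the 10 genes were 0.08 with CORT, 0.34 with ENZA and 0.22 with CORT+ENZA, and those over all genes -0.01, -0.00 and -0.01.

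Against acute CORT, CORT+ENZA gave no call among the 10 genes, and 0.175% of all genes were called, 0.167% as higher and 0.00728% as lower. Against acute ENZA it gave none, with 1.81% of all genes called, 1.08% as higher and 0.728% as lower. At an unadjusted p under 0.05, 1 gene of the 10 (Ugt2b34) passed in the first comparison, where 696 of all 13733 genes did, and 2 (Ugt2b38 and Ugdh) in the second, where 2050 did. DESeq2 and limma-voom called none of the 10 in either. The interaction of corticosterone and enzalutamide was called for no gene at all, with 501 of 13733 at an unadjusted p under 0.05 and none of the 10 among them. Its log2 values for the 10 genes ran from -0.71 for Ugt1a9 to -0.02 for Ugt2b38.

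Ugt2b38 had a wide spread between mice. It was at 3.30 to 13.5 CPM (median 10.0) in acute vehicle, 5.01 to 42.1 CPM (median 20.7) in CORT, 3.42 to 10.0 CPM (median 8.0) in ENZA and 3.79 to 26.4 CPM (median 15.7) in CORT+ENZA mice. In both acute groups given corticosterone the median lay above the highest vehicle mouse, and all 4 groups overlapped. The acute log2 difference of CORT from vehicle was 1.19 (95% interval 0.33 to 2.04, adjusted p = 0.194). In the chronic arm it was at 1.20 to 6.13 CPM (median 2.75) in vehicle, 0.371 to 3.60 CPM (median 0.891) in CORT and 0.820 to 3.26 CPM (median 1.24) in CORT+ENZA mice. These chronic levels rest on 7 to 107 counts per mouse. Its near copy Ugt2b5 had 7208 counts or more in every chronic mouse. Read pairs that match both genes equally well are multi-mapping and would be counted for neither. How many pairs this concerns cannot be read from the shared stretches of 50 bases, since the reads are 100 bases long and paired.

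Whether the effect of a treatment differed between the arms was tested as the difference of effects, each against its own arm, over 14138 genes and 42 libraries. The CORT effect differed for 1 of the 10 genes, where 6.17% of all genes differed, 3.73% with the chronic effect above the acute and 2.44% below it. That gene was Ugt2b38, whose chronic effect was lower than the acute effect by a log2 value of -2.48 ± 0.70 (SE, adjusted p = 0.0268). The call did not hold in 2 of 6 alternative fits, without the low-count filter (adjusted p = 0.064) and with limma-voom (adjusted p = 0.123). The CORT+ENZA effect against vehicle differed for 5 of the 10, all larger in the chronic arm, where 3.93% of all genes differed, 2.4% in that direction and 1.53% in the other. The differences were 2.12 ± 0.43 for Ugt1a9, 1.25 ± 0.23 for Ugdh, 0.92 ± 0.20 for Ugt2b35, 0.67 ± 0.17 for Ugt2b34 and 0.63 ± 0.18 for Ugt2b5 (log2, SE), with adjusted p of 0.00221, 0.00063, 0.00352, 0.012 and 0.041. The effect of enzalutamide added to corticosterone differed for 3 of the 10, where 1.27% of all genes differed, 0.905% upwards and 0.361% downwards. It was larger in the chronic arm by 1.63 ± 0.43 for Ugt1a9, 0.90 ± 0.23 for Ugdh and 0.89 ± 0.20 for Ugt2b35, with adjusted p of 0.0415, 0.0334 and 0.0095. Of these calls, that of Ugt2b35 held in all 6 alternative fits. Ugt1a9 was not called without the low-count filter (adjusted p = 0.10), nor was Ugdh (adjusted p = 0.0774). Ugdh was also not called with libraries L19A, L36A, 11 and 18 left out together (adjusted p = 0.0658), a set chosen without a stated rule. Extraction kit and duration cannot be told apart in these differences.

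**Figure D4:**
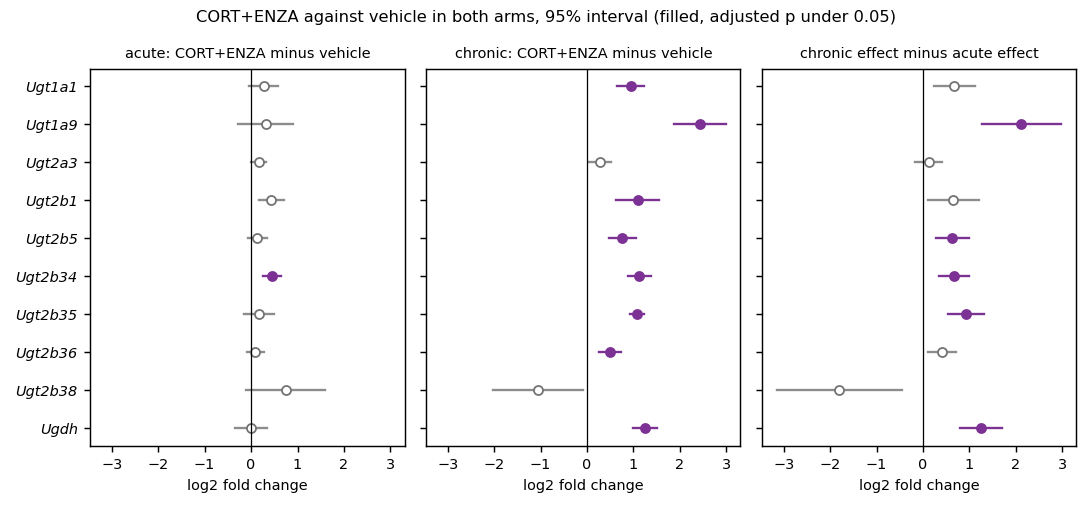
Log2 fold change of CORT+ENZA against vehicle in the acute arm (left) and chronic arm (middle), and the difference of both effects (right). Lines are 95% intervals by a normal approximation, and filled points have an adjusted p under 0.05. Acute CORT+ENZA has 1 filled point (Ugt2b34), chronic CORT+ENZA 8, and the difference 5.

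The genes around the 10 members were read from lists of the same pathway. Of 13 further UGT genes, 8 passed the filter in each arm. Against chronic vehicle, 3 of the 8 rose with CORT+ENZA, where 10.3% of all genes did. Ugt2b37 was at 0.483 ± 0.242 CPM in vehicle and 2.12 ± 1.25 CPM in CORT+ENZA mice, Ugt1a7c at 0.273 ± 0.145 and 0.714 ± 0.302 CPM, and Ugt1a6b at 35.6 ± 3.81 and 42.1 ± 2.92 CPM (SD, n = 6). Against chronic CORT, 1 of the 8, Ugt2b37, rose (log2 1.92 ± 0.49 SE, adjusted p = 0.0147), and the median over the 8 was 0.01. With chronic CORT against vehicle 1 of the 8 rose, Ugt1a10, from 0.390 ± 0.135 to 0.984 ± 0.387 CPM. Each of these single calls is 12.5% of the 8, near the 11.8% of all genes called against CORT and below the 18.3% called with CORT. The parts called as higher were 6.99% and 9.04% of all genes. No further UGT gene was called in the acute arm. All UGT1A values carry the limit of the common exons.

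Of 15 genes that make or use UDP-glucuronate, 14 were tested, and 2 rose and none fell with CORT+ENZA against chronic CORT. That is 14.3% of those tested, near the 11.8% of all genes called, of which 6.99% were higher and 4.86% lower. The median log2 fold change over the 14 was 0.06. Entpd5, an endoplasmic reticulum enzyme that splits UDP, rose from 215 to 404 CPM (log2 0.91 ± 0.10 SE, adjusted p = 8.07e-06). Slc35d1, which carries UDP-glucuronic acid into the endoplasmic reticulum, rose from 92.8 to 117 CPM (log2 0.33 ± 0.10 SE, adjusted p = 0.0298). With chronic CORT+ENZA against vehicle, 4 of the 14 rose and none fell, where 10.3% of all genes rose and 8.29% fell. With acute CORT+ENZA against vehicle, 2 of the 14 rose and 1 fell, where 1.42% of all genes rose and 1.05% fell. Pgm3, of amino sugar synthesis, rose from 7.13 to 11.1 CPM (log2 0.64 ± 0.15 SE, adjusted p = 0.0236), and Slc35b1, a nucleotide carrier, from 41.6 to 53.3 CPM (log2 0.36 ± 0.10 SE, adjusted p = 0.0418). Ugp2, which makes UDP-glucose, fell from 247 to 183 CPM (log2 -0.44 ± 0.09 SE, adjusted p = 0.0107).

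Of 8 genes for the transport or cleavage of glucuronides, 4 rose and none fell with CORT+ENZA against chronic CORT. That is 50% of the 8, against 11.8% of all genes called, 6.99% as higher and 4.86% as lower. Abcc3, an exporter of glucuronides towards the blood, was at 59.97 CPM under CORT and 275 CPM under CORT+ENZA (log2 2.20 ± 0.17 SE, adjusted p = 1.63e-07). Slco1a4, an uptake carrier of organic anions, stood at 51.1 and 185 CPM (log2 1.85 ± 0.32 SE, adjusted p = 0.00107). Abcc2, the exporter into bile, rose from 506 to 731 CPM (log2 0.53 ± 0.16 SE, adjusted p = 0.0316), and in the acute arm from 544 CPM with vehicle to 754 CPM with ENZA (log2 0.47 ± 0.10 SE, adjusted p = 0.0206). Abcc4, an exporter of the sinusoidal side, was at 1.29 and 3.03 CPM (log2 1.22 ± 0.36 SE, adjusted p = 0.0309).

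Of 12 reference genes of CAR and PXR, the receptors' own genes included, 9 rose and none fell with CORT+ENZA against chronic CORT, with a median log2 fold change of 1.89. Of all genes tested, 6.99% were called as higher and 4.86% as lower in that comparison. Chronic CORT against vehicle was followed by 4 of the 12 higher and 1 lower, with a median log2 fold change of 0.62. Of all genes, 9.04% were called as higher and 9.29% as lower there. Cyp2c29, an inducible cytochrome P450, rose from 1308 CPM under CORT to 5459 CPM under CORT+ENZA (log2 2.06 ± 0.11 SE, adjusted p = 7.46e-10). In the acute arm, 9 of the 12 rose with ENZA alone, where 1 of the 10 glucuronidation genes and 0.845% of all genes did. Of 7 hepatocyte markers tested, 4 fell with CORT+ENZA against chronic CORT and none rose, where 4.86% of all genes fell. Alb, from 80187 to 50983 CPM, and Ttr, from 5450 to 2709 CPM, were among the 4. With chronic CORT against vehicle, 2 of the 7 rose and none fell, where 9.04% of all genes rose and 9.29% fell. The part of these markers in the levels of the 10 genes, which are shares of all counts, was not tested. The 10 Kupffer cell markers summed to 112 to 196 CPM under chronic CORT and 160 to 726 CPM under CORT+ENZA. Against CORT, 2 of the 10 were called higher, as were 6.99% of all genes. The highest sum was that of mouse 18, and without this mouse the 6 glucuronidation genes named above were all still called against CORT.

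Likeness to genes outside the UGT family was described by Pearson's r of log2 CPM over all libraries of an arm. These libraries share their treatment groups, and r carries no test. Over the 18 chronic libraries, Ugt2b35 was most like Ces2a, a carboxylesterase (r = 0.984), and Cyp2c29 (r = 0.955). Ugdh was most like Gstm1, a glutathione S-transferase (r = 0.959), and Ugt2b34 most like Cyp3a59 (r = 0.958). Ugt2b5 and Ugt2b36 shared Gclm, a subunit of the enzyme that starts glutathione synthesis, as the most alike gene outside the family (r = 0.968 and 0.935). With each other their r over the same libraries was higher, at 0.972. Ugt1a1 was most like Gch1 (r = 0.925), Ugt1a9 most like Entpd5 (r = 0.926), Ugt2a3 most like Tax1bp1 (r = 0.909) and Ugt2b1 most like 1700028E10Rik (r = 0.918). Ugt2b38 was most like Ces4a (r = 0.847), which was also among its 3 most alike genes over the 24 acute libraries (r = 0.861). In the acute arm, Entpd5 was the most alike gene of Ugt2b35 (r = 0.854) and the second of Ugdh (r = 0.844), and Cyp4a12a that of Ugt2b1 (r = 0.765).

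Among the members themselves, deviations from the group means were compared within each arm. Ugt2b5 and Ugt2b36 deviated together most closely over the 18 chronic libraries (r = 0.948), and Ugt1a1 and Ugt1a9 over the 24 acute libraries (r = 0.862). Over the chronic libraries, r for Ugt1a1 and Ugt1a9 was 0.068. In the acute arm, mice L19A and L36A were the lowest in both of these genes, and r without them was not computed. For Ugt2b5 and its near copy Ugt2b38 the value was 0.172 in the chronic and 0.454 in the acute arm. Paired genes here share libraries, depth and, for UGT1A, exons, and the values are descriptions.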

How the data were processed

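Liver mRNA of 42 mice was sequenced as stranded libraries of 100 bp paired ends on a DNBseq platform, per the labels. The deposited values are raw counts of reads per gene for every mouse, without normalization, in a table for each arm. STAR 2.7.3a and HTSeq 0.12.4 were used with build mm10, per the submitters' processing notes; annotation release, counting mode and strand setting are not stated in the sources used here. Multi-mapping read pairs, 9.34 to 12.8% of pairs in acute and 18.6 to 22.7% in chronic libraries, were on a summary line that names no gene and stayed out of library sizes.

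Genes were filtered by filterByExpr (minimum count 10, minimum total 15), scaled by TMM and tested in R 4.3.3 with edgeR 4.0.16 (robust quasi-likelihood, all groups of an arm in 1 fit, no covariate), leaving 13733 acute and 13099 chronic genes. Differences between arms were tested in 1 model of 14138 genes. P-values were Benjamini-Hochberg adjusted over all genes. The steps were tested on simulated data. Alternatives were DESeq2 1.42.0, limma 3.58.1 (voom), other scaling and filters, and fits without single libraries. No 2 libraries of a group agreed within sampling noise. Gene structures came from GENCODE M21 (GRCm38).

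The 10 genes and the lists around them were chosen with earlier results of these data known. All 10 genes are described. From each list, up to 4 called genes with the smallest adjusted p are named. For each member and arm, the 3 genes outside the UGT family most alike in pattern were computed. A called gene of the list on UDP-glucuronate is not reported here.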

Additional observations from a re-analysis of the deposited data

Results flagged for a closer look

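In 70 sets of 6 mice (10 genes in 7 groups), the lowest or highest mouse was set against the rest by its gap to the nearest mouse over the range of the group, with Dixon's 95% limit. Chance alone passes this limit in about 1 of 20 sets, and 9 passed. In the chronic CORT+ENZA group, mouse 18 had 170 CPM of Ugt1a1 where the others had 276 to 334, and mouse 4 had 34.4 CPM of Ugt1a9, below 54.3 to 66.1, and 3.26 CPM of Ugt2b38, above 0.82 to 1.71. In the chronic CORT group, mouse 27 had 401 CPM of Ugt2b34, below 498 to 544. In the acute ENZA group, mouse L29A had 370 CPM of Ugt2b35, above 157 to 210, and 271 CPM of Ugdh, above 120 to 160. In the acute CORT group, mouse L14A had 37.2 CPM of Ugt1a9, above 22.0 to 24.3. In the acute CORT+ENZA group, mouse L36A had 594 CPM of Ugt2b36, above 503 to 535, and mouse L30A had 172 CPM of Ugdh, above 90.1 to 117.

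Effects that differed between the arms, by the test of the difference itself, were those of CORT on Ugt2b38 (-2.48 on the log2 scale, chronic minus acute), of CORT+ENZA against vehicle on Ugt1a9 (2.12), Ugdh (1.25), Ugt2b35 (0.92), Ugt2b34 (0.67) and Ugt2b5 (0.63), and of enzalutamide added to corticosterone on Ugt1a9 (1.63), Ugdh (0.90) and Ugt2b35 (0.89). The arms also differ in extraction kit, which cannot be told apart from duration.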

How the results depend on the processing

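The 6 calls of chronic CORT+ENZA against CORT and the 8 against vehicle kept their direction and their call in all 25 alternatives each, with 6 to 8 and 8 to 9 of the 10 genes called. The acute comparisons with no call had none under any alternative. The count for chronic CORT against vehicle, 1 gene, was 0 to 3 genes when 1 library was left out. It was 3 with DESeq2, 3 with limma-voom, 3 without mice 11 and 18, and 0 with only the groups compared. Leaving out chronic CORT mouse 1, 2 or 3, vehicle mouse 12, 13, 14 or 15, or CORT+ENZA mouse 5, 6, 16 or 17 gave 0, and leaving out mouse 10, 18 or 27 gave 2 and mouse 11 gave 3. The acute ENZA call became 0 with only the groups compared and 2 without mice L19A and L36A, and that of acute CORT+ENZA against vehicle was 1 to 2 when 1 library was left out, 2 (with Ugt2b1) without L13A or L30A. The Ugt2b38 difference in the CORT effect was not called without the low-count filter (0 genes, adjusted p = 0.064) or, for Ugt2b38, with limma-voom (adjusted p = 0.123). The 5 differences in the CORT+ENZA effect became 8 with limma-voom. The 3 in the added enzalutamide effect became 6 with limma-voom, 5 without L19A, L36A, 11 and 18 together, and 1, Ugt2b35, without the filter. No rule is stated for the choice of these 4 libraries. The cause of these changes was not tested. No result reversed its direction. Mouse numbers do not repeat between groups. With 6 sets of consecutive acute numbers as a term, a grouping that the labels do not describe, every acute count of the 10 genes was as before. Counting error is small beside the spread between mice. Relative to the level it is largest for Ugt2b38, with 7 to 107 counts per chronic library, where the SD within groups was 56.5 to 92.0% of the mean.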

Other observations

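Within the chronic CORT group, Ugt2b1 fell into separate ranges, chosen for mention after the values were seen. Mice 1, 25 and 27 had 327, 420 and 427 CPM, and mice 2, 3 and 26 had 771, 804 and 855 CPM. Ugt1a9 was at 28.6, 20.9 and 17.5 CPM in mice 1, 25 and 27 and at 10.0, 8.72 and 11.49 CPM in mice 2, 3 and 26, so the mice lowest in Ugt2b1 were those highest in Ugt1a9. This was not limited to the CORT group. In CORT+ENZA, mouse 18 was lowest in Ugt2b1 and highest in Ugt1a9, and mouse 4 the reverse. In vehicle, mouse 14 was lowest in Ugt2b1 and highest in Ugt1a9, and mouse 10 the reverse. Vehicle mouse 11 did not follow this. It had 688 CPM of Ugt2b1, as did mouse 10, but 13.1 CPM of Ugt1a9 where mouse 10 had 6.84. Deviations of both genes from the group means had r = -0.814 over the 18 chronic and 0.072 over the 24 acute libraries. Ugt2b35 showed no such split, with 148 to 198 CPM over the 6 mice. The labels name nothing that separates these mice, and no test was made.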
